A study of Homo sapiens with 12 samples.

Results

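The 10 genes described here encode the enzymes, the citrate carrier and the accessory proteins of de novo fatty acid synthesis: SLC25A1, ACLY, ACSS2, ACACA, ACACB, FASN, ME1, MID1IP1, THRSP and MLXIPL. They were picked by gene symbol from the 19677 genes in the count tables. The rule uses no measured value, but the list of symbols was chosen with earlier results of these data known. All 10 symbols were found once, and 9 had counts enough to be tested among the 12470 genes tested. RNA was sequenced from CAOV3, an established line derived from a human high-grade serous ovarian tumour (genotype given as WT), grown in DMEM with 10% fetal bovine serum and antibiotics. The 12 libraries form 4 groups of 3. Control cells received DMSO, the ascites group DMSO plus ovarian cancer ascites at 10% for 16 hours, the bezafibrate group 200 uM bezafibrate for 16 hours, and the combination group 200 uM bezafibrate with 10% ascites for 16 hours. Ascites is the abdominal fluid in which this tumour spreads. Bezafibrate belongs to the fibrates, lipid-lowering drugs that activate PPAR receptors. The labels name DMSO only in the groups without the drug and list no time for the control group, so a difference in solvent cannot be told apart from the drug. Whether replicates were separate cultures, and how many ascites samples were used, is not stated, so the p-values measure only the spread between these libraries.

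In de novo synthesis, mitochondrial citrate is carried to the cytosol by SLC25A1 and split by ACLY into oxaloacetate and acetyl-CoA, while ACSS2 makes acetyl-CoA from acetate. ACACA and ACACB carboxylate acetyl-CoA to malonyl-CoA, FASN builds palmitate from both with electrons from NADPH, and ME1 is a source of that NADPH. MID1IP1 binds the carboxylases and promotes their polymerisation, and THRSP is a further accessory protein. The transcription factors SREBP1 and MLXIPL (ChREBP) switch on much of the pathway, which many carcinomas keep active.

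Total counts per library ran from 11831093 to 18762759, and the common biological coefficient of variation was 3.06%. Combination replicate 3 stood apart from the rest, at -22.4 on the second principal component (9.88% of the variance), where the other 11 libraries lay between -4.37 and 9.84. Its counts also followed transcript GC content: the fitted trend at the GC content of FASN (65.34%) was -0.14 on the log2 scale, against -0.04 to 0.07 in the other 11 libraries. Results of the pathway genes that rest on this library are therefore given with and without it. Of the epithelial markers, EPCAM, KRT7, KRT8, KRT18 and KRT19 were expressed in all 12 libraries, whereas the ovarian carcinoma markers MUC16 and WT1 had 10 and 15 counts in all libraries together. PAX8 had 122 counts in all, at 0.0793 to 1.27 CPM a library, with means of 0.378 CPM in control and 1.11 CPM with bezafibrate. The summed level of all 8 epithelial markers was 6134 to 6255 CPM in control, 6291 to 6461 with ascites, 6352 to 6672 with bezafibrate and 6818 to 6925 with both. In control, ascites, bezafibrate and combination in turn, KRT7 averaged 762, 803, 1118 and 1188 CPM and KRT19 averaged 600, 595, 713 and 716 CPM. KRT8 averaged 3005, 3129, 2914 and 3082 CPM and KRT18 averaged 1784, 1838, 1720 and 1845 CPM in the same groups. In bulk RNA, a change in the share of cells that express a gene and a change in RNA per cell cannot be told apart.

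The pathway was expressed at very different levels from gene to gene. On the scale of scaled counts (CPM, the unit edgeR gives) divided by the length of the longest transcript (CPM per kb), ACLY was highest in control cells at 110.5 ± 1.49 (SD, n = 3), followed by FASN at 68.0 ± 1.68 and SLC25A1 at 50.02 ± 0.746. MID1IP1 stood at 21.2 ± 0.168 CPM per kb, ACACA at 16.5 ± 0.1502 and ME1 at 8.10 ± 0.293. ACSS2 followed at 4.04 ± 0.260 CPM per kb, ACACB at 1.00 ± 0.136 and MLXIPL at 0.501 ± 0.143. The cytosolic carboxylase ACACA was thus the main carboxylase transcript, and ACACB, which sits at the outer mitochondrial membrane, was a minor one. The order was the same in all 4 groups, and neighbours in it did not overlap within a group, except that in the combination group FASN (57.2 to 64.6 CPM per kb) and SLC25A1 (49.3 to 60.1 CPM per kb) overlapped. THRSP, an accessory protein typical of liver and fat, had 2 counts in all 12 libraries, 1 in bezafibrate replicate 3 and 1 in combination replicate 3. A count of 0 in the 6 libraries without the drug allows up to 0.0363 CPM for THRSP, from 3 counts over those libraries and for counting error only.

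**Figure D1:**
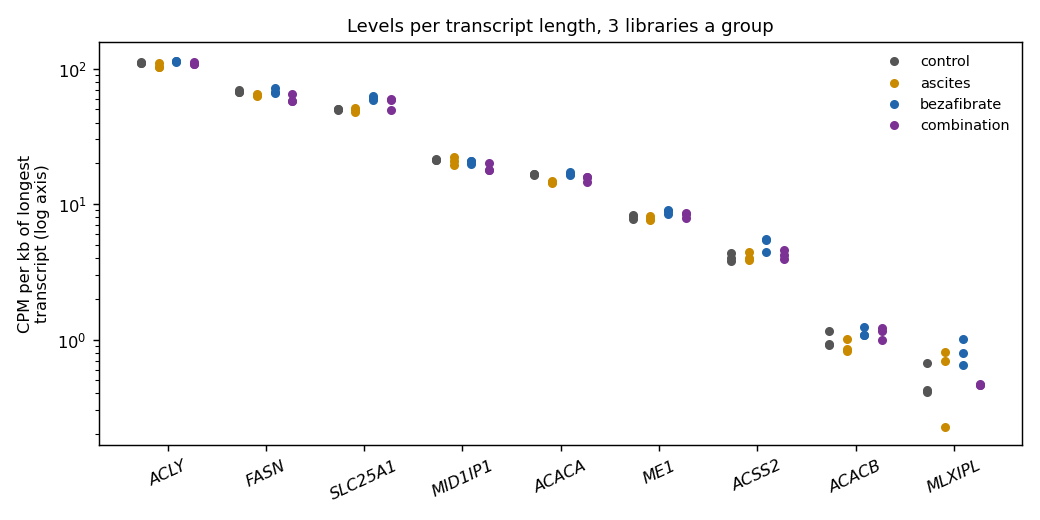
Level of each pathway gene per transcript length in each library (vertical log axis, CPM per kb of the longest transcript), with 3 points a group and genes ordered by their level in control cells; THRSP, with 2 counts in all, is not drawn. ACLY lies near 110.5 CPM per kb in control cells and MLXIPL near 0.501 CPM per kb.

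A start was found for 9 of the 10 genes, all but FASN, in the RefSeq promoter table (GRCh38.p14). Each window runs from 250 bases before to 50 after that start. For ACLY, ACACA, ACACB, ACSS2 and MLXIPL the window lies wholly inside the gene span given below, so its start is not the outermost of the gene. The ACACA window, for example, ends at 37300017, while the gene, on the minus strand, begins at 37406836. The windows of 3 genes are shown because these genes stand for the changes in the results: SLC25A1 rose with the drug, ACACA fell with ascites and MID1IP1 fell with the drug. Capitals mark matches on either strand to a CCAAT box (CCAAT, the NF-Y motif, written ATTGG on the other strand) or to the SREBP element (TCACNCCAC).
SLC25A1, chr22:19178687-19178986, minus strand: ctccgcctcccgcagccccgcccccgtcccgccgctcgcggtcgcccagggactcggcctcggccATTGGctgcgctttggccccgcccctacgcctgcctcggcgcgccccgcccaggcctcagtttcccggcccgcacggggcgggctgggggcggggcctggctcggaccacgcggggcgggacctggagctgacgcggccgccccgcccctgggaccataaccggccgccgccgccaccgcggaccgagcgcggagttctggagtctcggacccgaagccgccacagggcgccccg
ACACA, chr17:37299718-37300017, minus strand: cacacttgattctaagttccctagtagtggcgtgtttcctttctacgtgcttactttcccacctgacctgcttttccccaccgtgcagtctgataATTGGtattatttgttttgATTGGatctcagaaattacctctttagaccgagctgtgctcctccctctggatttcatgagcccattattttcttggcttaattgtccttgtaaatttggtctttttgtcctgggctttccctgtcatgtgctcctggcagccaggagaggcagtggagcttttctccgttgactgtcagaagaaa
MID1IP1, chrX:38801209-38801508, plus strand: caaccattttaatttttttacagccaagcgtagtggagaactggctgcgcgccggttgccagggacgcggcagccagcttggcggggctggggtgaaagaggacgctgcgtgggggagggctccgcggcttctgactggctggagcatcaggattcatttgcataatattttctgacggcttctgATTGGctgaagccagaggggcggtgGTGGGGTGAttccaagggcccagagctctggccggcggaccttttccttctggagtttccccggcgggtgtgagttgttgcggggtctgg

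A CCAAT box was present in 6 of the 9 promoters (ACLY, ACACA, ACACB, MID1IP1, THRSP and SLC25A1), against 34.6% of all 35116 promoters in the table and 34.8% of those of genes in the count tables. SLC25A1 carried 1 CCAAT box, 185 bases before the start, and ACACA carried 2, at 155 and 136 bases before the start used in the table. The SREBP element was found in 1 of the 9, MID1IP1, on the minus strand 40 bases before the start, against 1.13% of both sets of promoters. The MID1IP1 match, GTGGGGTGA in the strand printed, lies between its CCAAT box, 65 bases before the start, and the start, and overlaps no other motif searched. A GC box (GGGCGG, both strands) was present in 7 of the 9, against 45% of all promoters and 56.8% of those of genes in the count tables. The E-box CACGTG was in 0 of the 9, against 7.26% and 8.36%. FASN had no entry, so it was searched for none of these motifs. A match describes letters in this window and not a bound site.

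The comparison of ascites with control asked what the fluid changed in the absence of the drug, and that of the combination with bezafibrate what it changed in its presence. These contrasts share no library. Averaged over both, the carboxylase ACACA and the synthase FASN were the pathway genes that fell, at the committed and the final steps of palmitate synthesis. A gene is called, and said to rise or fall, here at an edgeR adjusted p under 0.05 over all 12470 genes. With ascites alone 1 of the 9 tested genes was called, ACACA, and 0.0882% of all genes were called lower and 0% higher. With ascites in the presence of bezafibrate 1 of 9 was called, FASN, where 0.0882% of all genes were called lower and 0.0401% higher. Averaged over both contrasts 2 of 9 were called, ACACA and FASN, against 0.233% of all genes called lower and 0.0481% higher. The remaining 7 tested genes were not called in any of these 3 contrasts.

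ACACA (ENSG00000278540.5, chr17:37084992-37406836) makes the malonyl-CoA from which FASN extends the chain. It stood at 163, 166 and 165 CPM in control replicates 1 to 3, at 143, 145 and 148 CPM with ascites, at 166, 162 and 172 CPM with bezafibrate, and at 146, 157 and 159 CPM with both. The 6 libraries with ascites all lay below the 6 without it, an arrangement that 0.184% of all genes showed in the same direction. With ascites alone ACACA fell by 11.5% (log2 change -0.18, SE 0.038, edgeR adjusted p 0.0449). That call was lost in each of the 6 fits without 1 of the libraries compared: the adjusted p was 0.145, 0.365 and 0.413 without control replicates 1, 2 and 3, and 0.450, 0.465 and 0.152 without ascites replicates 1, 2 and 3. In the presence of the drug the change was -0.12 (SE 0.037, edgeR adjusted p 0.532), again with groups that did not overlap (4.83% of all genes in this direction). Averaged over both contrasts ACACA fell by 9.75% (log2 change -0.15, SE 0.026, edgeR adjusted p 0.00236). This averaged call was kept in each of the 19 alternatives run, with adjusted p from 4.06e-05 to 0.0183. Against control, ACACA in cells given both changed by -0.10 (edgeR adjusted p 0.0630), and by -0.12 (adjusted p 0.0140) without combination replicate 3. The change with the drug in ACACA was 0.02 in the absence of ascites (95% interval -0.05 to 0.09, edgeR adjusted p 0.800), and 0.08 in its presence (edgeR adjusted p 0.176). Without combination replicate 1, the lowest ACACA library of its group, the change with the drug in ascites was 0.12 (edgeR adjusted p 0.0370) and that averaged over ascites was 0.07 (edgeR adjusted p 0.0459).

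FASN (ENSG00000169710.9, chr17:82078338-82098236), the multifunctional synthase that releases palmitate, had levels of 599, 577 and 572 CPM in control, 549, 541 and 553 CPM with ascites, 562, 577 and 613 CPM with bezafibrate, and 491, 553 and 489.8 CPM with both. As for ACACA, all 6 libraries with ascites lay below the 6 without it, and combination replicates 1 and 3 were the lowest of the 12. In the presence of the drug FASN fell by 12.4% with ascites (log2 change -0.19, SE 0.038, edgeR adjusted p 0.0314). In the absence of the drug the change was -0.09 (95% interval -0.17 to -0.01, edgeR adjusted p 0.801), with groups that did not overlap (7.06% of all genes in this direction). Averaged over both, FASN fell by 9.28% (log2 change -0.14, SE 0.027, edgeR adjusted p 0.0135). The averaged change without combination replicate 3, whose counts followed GC content, was -0.13 (edgeR adjusted p 0.0610), and the adjusted p was 0.0501 without ascites replicate 1 and 0.0610 without ascites replicate 2. The call in the presence of the drug was lost without combination replicate 3 (-0.16, edgeR adjusted p 0.252), combination replicate 1 (adjusted p 0.137), bezafibrate replicate 2 (0.109) and bezafibrate replicate 3 (0.194), and with the GC trend removed (-0.18, adjusted p 0.364).

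Bezafibrate alone left FASN at nearly its control level, with a log2 change of 0.00 (95% interval -0.08 to 0.08, edgeR adjusted p 0.983). With ascites present the change with the drug was -0.10 (edgeR adjusted p 0.0745), and it was -0.16 (edgeR adjusted p 0.000726) without combination replicate 2, the highest FASN library of its group. Without that library the change averaged over ascites was also called, at -0.08 (edgeR adjusted p 0.00938), against -0.05 (edgeR adjusted p 0.192) with all libraries. Against control, cells given both treatments had 12.3% less FASN RNA (log2 change -0.19, SE 0.038, edgeR adjusted p 0.000619), and this call was kept in each alternative run, with an adjusted p of 0.0166 without combination replicate 3.

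**Figure D2:**
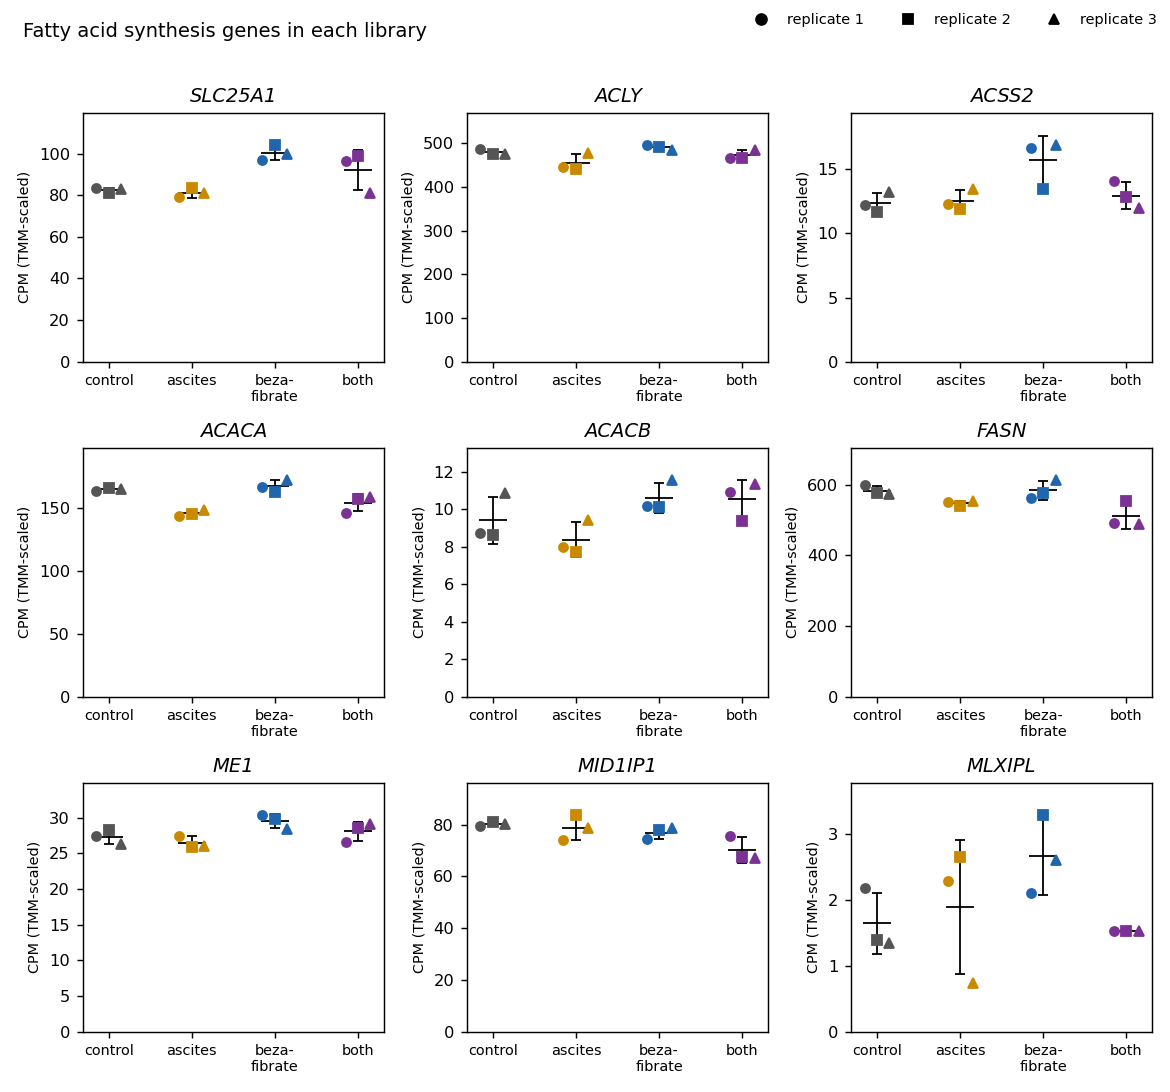
Level of the 9 tested genes in each library (vertical axis, CPM after TMM scaling, starting at 0; 1 panel a gene), where each symbol is 1 library, its shape the replicate number, the horizontal bar the group mean and the vertical bar 1 SD (n = 3). In the ACACA and FASN panels every library with ascites lies below every library without it, and in the SLC25A1 panel combination replicate 3, at 81.2 CPM, lies with the libraries that had no drug.

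The contrasts of bezafibrate with control and of the combination with ascites asked what the drug changed without and with the fluid, and they share no library. In both, the pathway gene that rose was SLC25A1, the carrier that brings citrate out of the mitochondrion, while the abundant enzymes ACLY, ACACA and FASN were not called. The acetate enzyme ACSS2 rose with the drug alone and the carboxylase partner MID1IP1 fell with the drug in ascites. With the drug alone 2 of 9 genes were called higher, and 10.1% of all genes were called higher and 7.55% lower. With the drug in ascites 1 of 9 was called higher and 1 lower, against 10.5% and 7.29% of all genes. Averaged over ascites 3 of 9 were called higher (SLC25A1, ACACB and ACSS2) and 1 lower (MID1IP1), against 15% and 13.2% of all genes. The drug moved a large share of all genes, so a few calls among 9 members do not set the pathway apart. Beside these changes, the summed level of 5 adipocyte markers was 2.50 to 3.77 CPM in the libraries without the drug and 9.10 to 11.8 CPM in those with it. CIDEC made up nearly all of it, while ADIPOQ and CIDEA had 0 counts in all 12 libraries and LEP had 1. The summed level of 5 fibroblast markers was 9.99 to 11.5 CPM without the drug and 5.57 to 7.21 CPM with it, nearly all from COL1A1 and COL3A1, while COL1A2 had 2 counts and DCN 3 in all 12 libraries. Whether these shifts bear on the pathway genes was not tested.

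SLC25A1 (ENSG00000100075.10, chr22:19175581-19178736), whose promoter carries a single CCAAT box, stood at 83.3, 81.0 and 83.0 CPM in control and at 79.1, 83.7 and 80.9 CPM with ascites. It was at 97.1, 104 and 99.8 CPM with bezafibrate and at 96.7, 99.1 and 81.2 CPM with both. The libraries with the drug lay above all libraries without it, except combination replicate 3, which lay within the range of the ascites group. With the drug alone SLC25A1 rose by 21.8% (log2 change 0.28, SE 0.051, edgeR adjusted p 6.62e-05), and the call was kept in each alternative run. In the presence of ascites it rose 1.14-fold (log2 change 0.19, SE 0.053, edgeR adjusted p 0.00960). Without combination replicate 3 that change was 0.27 (edgeR adjusted p 4.30e-06), while the call was lost without ascites replicate 1 (adjusted p 0.0565), combination replicate 1 (0.0662) or combination replicate 2 (0.0804). The fitted GC trend at the GC content of SLC25A1 (65.59%) was -0.15 in combination replicate 3 and -0.04 to 0.07 in the other 11 libraries. Averaged over ascites the rise was 17.8% (log2 change 0.24, SE 0.037, edgeR adjusted p 3.93e-06), which no alternative removed. Against control, SLC25A1 rose by 12.3% in cells given both (log2 change 0.17, edgeR adjusted p 0.0234). That value was 0.25 (adjusted p 2.36e-05) without combination replicate 3. Its call was lost with DESeq2 (adjusted p 0.0532), when only these groups were fitted (0.0652), and without combination replicate 1 (adjusted p 0.126), combination replicate 2 (0.149), control replicate 2 (0.0848) or control replicate 3 (0.0552). With ascites SLC25A1 was at -0.02 in the absence of the drug (95% interval -0.13 to 0.09, edgeR adjusted p 0.986).

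ACLY (ENSG00000131473.17, chr17:41866917-41930545) splits the exported citrate into acetyl-CoA. It stood at 487, 475 and 476 CPM in control, 446, 443 and 478 CPM with ascites, 496, 493 and 486 CPM with bezafibrate, and 466, 466 and 486 CPM with both. The groups lay close together, and no contrast of ACLY was called with all libraries. Averaged over the drug the change with ascites was -0.07 (95% interval -0.11 to -0.02, edgeR adjusted p 0.342), and it was -0.08 (edgeR adjusted p 0.0372) without combination replicate 3. Averaged over ascites the change with the drug was 0.04 (edgeR adjusted p 0.129), and it was 0.06 (edgeR adjusted p 0.0369) without ascites replicate 3. An antisense gene overlaps ACLY in GENCODE 29, as one does MID1IP1, and the strandedness of the counting is not given in the sources used here, so reads of either strand cannot be told apart.

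ACSS2 (ENSG00000131069.20, chr20:34874989-34927959) makes acetyl-CoA from acetate and so bypasses citrate. Its levels were 12.2, 11.7 and 13.2 CPM in control, 12.3, 11.9 and 13.5 CPM with ascites, 16.7, 13.5 and 16.9 CPM with bezafibrate, and 14.1, 12.8 and 11.99 CPM with both. The bezafibrate libraries lay above the control libraries, as for 17.2% of all genes, and those with both treatments overlapped every other group. With the drug alone ACSS2 rose by 26.4% (log2 change 0.34, SE 0.099, edgeR adjusted p 0.0130). The call was lost without control replicate 2 (adjusted p 0.0725), bezafibrate replicate 1 (0.0823) or bezafibrate replicate 3 (0.0746), and with DESeq2. With ascites present the change with the drug was 0.05 (95% interval -0.16 to 0.26, edgeR adjusted p 0.809). The averaged change (0.19, SE 0.072, edgeR adjusted p 0.0395) lost its call in 7 of the 12 fits without 1 library, those without control replicates 1 (adjusted p 0.0722) and 2 (0.0946), ascites replicates 1 (0.0760) and 2 (0.0874), bezafibrate replicates 1 (0.107) and 3 (0.0994) and combination replicate 1 (0.129). That averaged call was also lost under upper-quartile scaling and with DESeq2. The difference between the drug's change with and without ascites was -0.29 (95% interval -0.58 to 0.01, edgeR adjusted p 0.999), so it was not called.

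ACACB (ENSG00000076555.16, chr12:109111189-109268226) makes the malonyl-CoA that restrains CPT1 and with it fatty acid oxidation. It had 99 to 188 counts a library, which gave 8.73, 8.60 and 10.9 CPM in control, 7.97, 7.73 and 9.43 CPM with ascites, 10.2, 10.1 and 11.5 CPM with bezafibrate, and 10.9, 9.34 and 11.3 CPM with both. Replicate 3 was the highest library of each group, and the groups overlapped in every pairwise contrast. Averaged over ascites ACACB rose by 19.1% with the drug (log2 change 0.25, SE 0.084, edgeR adjusted p 0.0209). This call was lost without control replicate 1 (adjusted p 0.0600), control replicate 2 (0.0612), ascites replicate 1 (0.0532), ascites replicate 2 (0.0580) or bezafibrate replicate 3 (0.0587). It was also lost with DESeq2. The change with the drug was 0.18 alone (edgeR adjusted p 0.350) and 0.33 in ascites (edgeR adjusted p 0.0564). The latter was called at 0.42 without ascites replicate 3 (adjusted p 0.0317) and at 0.40 without combination replicate 2 (0.0305).

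MID1IP1 (ENSG00000165175.17, chrX:38801459-38806532), the carboxylase partner with the SREBP element in its promoter, stood at 79.7, 81.0 and 80.2 CPM in control and at 74.0, 83.7 and 78.8 CPM with ascites. It was at 74.3, 78.0 and 78.6 CPM with bezafibrate and at 75.8, 67.7 and 67.1 CPM with both, so combination replicates 2 and 3 were the lowest of the 12 libraries. In ascites the drug lowered MID1IP1 by 10.4% (log2 change -0.16, SE 0.051, edgeR adjusted p 0.0264). That call was lost without ascites replicate 2 (adjusted p 0.195), ascites replicate 3 (0.0618), combination replicate 2 (0.122) or combination replicate 3 (-0.12, adjusted p 0.0959). It was also lost with DESeq2 and when only these groups were fitted. With the drug alone the change was -0.06 (95% interval -0.16 to 0.04, edgeR adjusted p 0.474). The groups did not overlap there, as for 16.3% of all genes in the same direction. For the drug in ascites, and averaged over ascites, the MID1IP1 groups overlapped. Averaged over ascites MID1IP1 fell by 7.30% (log2 change -0.11, SE 0.036, edgeR adjusted p 0.0180). The averaged call was lost without ascites replicate 2 (adjusted p 0.0830), bezafibrate replicate 1 (0.0545) or combination replicate 2 (0.0570). Against control, cells given both had 12.1% less MID1IP1 RNA (log2 change -0.19, SE 0.051, edgeR adjusted p 0.00762). That value was -0.15 (adjusted p 0.0286) without combination replicate 3, and its adjusted p was 0.0537 without combination replicate 2.

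ME1 (ENSG00000065833.9, chr6:83210402-83431051), the cytosolic malic enzyme, stood at 27.5, 28.2 and 26.3 CPM in control, 27.5, 25.9 and 25.99 CPM with ascites, 30.3, 29.8 and 28.4 CPM with bezafibrate, and 26.6, 28.5 and 29.1 CPM with both. The bezafibrate libraries lay just above the control libraries (17.2% of all genes), with a change of 0.11 (95% interval -0.02 to 0.24, edgeR adjusted p 0.274). No contrast of ME1 was called. MLXIPL (ENSG00000009950.16, chr7:73593202-73647907), the glucose-responsive transcription factor ChREBP, had only 11 to 61 counts a library. Its levels were 2.18, 1.396 and 1.35 CPM in control, 2.28, 2.65 and 0.741 CPM with ascites, 2.11, 3.28 and 2.61 CPM with bezafibrate, and 1.52, 1.53 and 1.52 CPM with both. Ascites replicate 3 was the lowest and bezafibrate replicate 2 the highest MLXIPL library. The change with the drug alone was 0.69 (95% interval 0.09 to 1.29, edgeR adjusted p 0.109), and it was called with no filter (adjusted p 0.0420) and when only these groups were fitted (0.0355). With ascites in the presence of the drug the change was -0.81 (95% interval -1.42 to -0.20, edgeR adjusted p 0.794). THRSP (ENSG00000151365.2, chr11:78063861-78068351) was not tested, and it overlaps NDUFC2 on the opposite strand.

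**Figure D3:**
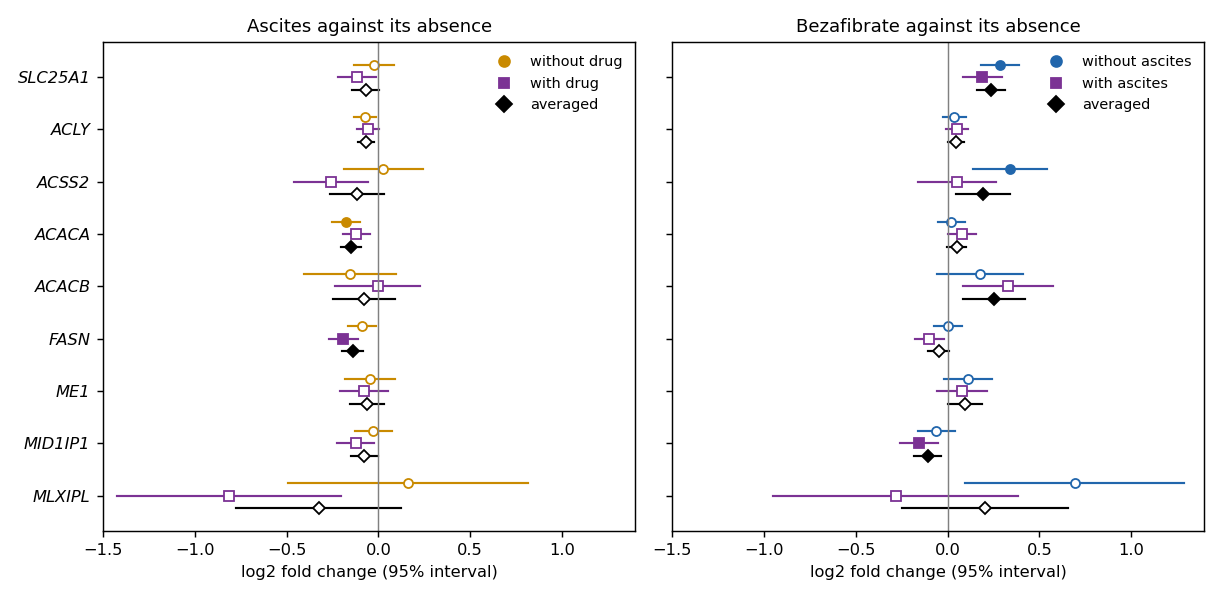
Fitted log2 fold changes of the 9 tested genes (horizontal axis) with 95% intervals, for ascites against its absence (left) and bezafibrate against its absence (right); circles and squares are the contrasts without and with the other treatment, diamonds their average, and filled symbols are called at an edgeR adjusted p under 0.05. On the left the averages of ACACA (-0.15) and FASN (-0.14) are the filled diamonds, and on the right those of SLC25A1 (0.24), ACACB (0.25), ACSS2 (0.19) and MID1IP1 (-0.11) are.

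Taking the 9 tested genes as a list, the change with ascites averaged over the drug was negative for 9 of 9, with a median log2 fold change of -0.08, while the median of all genes was 0.00. In the presence of the drug 9 of 9 were negative (median -0.12), and ACACB turned to 0.06 without bezafibrate replicate 3 and 0.07 without combination replicate 2. Ascites alone gave 7 of 9 negative (median -0.05), with ACSS2 at 0.03 and MLXIPL at 0.16. The groups did not overlap, with the ascites group lower, for 2 of 9 genes with ascites alone (7.06% of all genes) and for 4 of 9 in the presence of the drug (4.83%), namely ACLY, ACACA, FASN and MLXIPL. With the drug alone 8 of 9 changes were positive, with a median of 0.11; FASN, at 0.00, changed sign in 5 of 14 alternatives and ACACA, at 0.02, in 1. With the drug in ascites the changes were positive for 6 of 9 (median 0.05). For the drug alone the groups did not overlap for 3 of 9 genes with the drug higher (17.2% of all genes), namely ACSS2, ME1 and SLC25A1, and for MID1IP1 with the drug lower (16.3%). With the drug in ascites, and averaged over ascites, the groups overlapped for all 9 genes. The combination against control called 3 of 9, SLC25A1 higher and FASN and MID1IP1 lower, against 10.3% of all genes higher and 7.96% lower. Contrasts that use the same control or combination libraries are not independent of each other.

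The interaction asked if ascites acted differently once the drug was present. With edgeR 0 of 9 genes were called, and 0% of all genes (0 of 12470), while 1 of the 9, MLXIPL, and 445 of all genes had an unadjusted p under 0.05. DESeq2 also called 0 of the pathway genes. The values furthest from 0 among the pathway genes were -0.98 for MLXIPL (95% interval -1.87 to -0.08) and -0.29 for ACSS2. FASN had -0.10 (95% interval -0.21 to 0.01), and ACACA 0.06 (95% interval -0.05 to 0.17). That ACACA was called with ascites alone and FASN in the presence of the drug therefore does not show that the contrasts differed for either gene.

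Genes around the pathway were read from 6 lists, written with earlier results of these data known. Of 14 other SREBP1 targets, mostly desaturases, elongases and acyl transferases that act on palmitate or its products, 6 were called lower with ascites and 0 higher averaged over the drug, with a median log2 fold change of -0.15 and 14 of 14 negative; of all genes, 0.233% were called lower and 0.0481% higher. The stearoyl-CoA desaturase SCD changed by -0.22, the phosphatidate phosphatase LPIN1 by -0.22 and the desaturase FADS2 by -0.19. With the drug, averaged over ascites, 10 of 14 were called higher and 0 lower (median 0.14), against 15% and 13.2% of all genes. The elongase ELOVL6 rose by 0.50, the acyl-CoA synthetase ACSL3 by 0.41 and SCD by 0.30. SCD, for example, was at 1377 ± 8.51 CPM in control, 1179 ± 13.7 with ascites, 1696 ± 35.5 with bezafibrate and 1458 ± 37.7 with both (SD, n = 3). FASN was at 583 ± 14.4, 548 ± 6.32, 584 ± 26.1 and 511 ± 36.2 CPM in the same groups. These lists are described by their counts and medians, which carry no test of their own.

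Of 21 transcription regulators of the pathway, 2 were called lower with ascites averaged over the drug and 0 higher, against 0.233% and 0.0481% of all genes. They were INSIG1 at -0.37, which holds the SREBP and SCAP complex in the endoplasmic reticulum, and SREBF2 at -0.16, which encodes SREBP2. With the drug 8 were called higher and 4 lower (median 0.09), against 15% and 13.2% of all genes. NR1H3, the oxysterol receptor LXR alpha, rose by 1.10, PPARD by 0.55 and INSIG1 by 0.47, and PPARG fell by 0.38. SREBF1, which encodes SREBP1, stood at 144 ± 1.59 CPM in control, 137 ± 1.72 with ascites, 134 ± 7.27 with bezafibrate and 119.9 ± 7.78 with both (SD, n = 3). It fell in cells given both against control (log2 change -0.26, SE 0.043, edgeR adjusted p 1.76e-05). This contrast includes combination replicate 3. The alternatives were read only for the pathway genes, so the calls in these lists were not checked without that library.

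Of 16 genes that control the carboxylases, or are controlled by or degrade malonyl-CoA, 8 were called higher and 1 lower with the drug (median 0.09), against 15% and 13.2% of all genes. With ascites averaged over the drug edgeR called 0 of the 16, against 0.233% of all genes lower and 0.0481% higher. Of the 16, 2 had an unadjusted p under 0.05 in that contrast, as had 869 of all 12470 genes. CPT1A, the carnitine palmitoyltransferase that malonyl-CoA inhibits, went from 218 ± 6.41 CPM in control to 428 ± 14.6 CPM with bezafibrate (SD, n = 3), and its averaged change was 0.97. MLYCD, which destroys malonyl-CoA, rose by 0.79, CAB39, a partner of the kinase LKB1, by 0.52 and the pseudokinase TRIB3 by 0.28. In citrate and acetyl-CoA supply 5 of 14 were called higher and 1 lower with the drug (median 0.02), against the same 15% and 13.2% of all genes, and with ascites 0 were called and 1 had an unadjusted p under 0.05. Pyruvate carboxylase, PC, rose by 0.65, the cytosolic aconitase ACO1 by 0.35 and the pyruvate carrier subunit MPC2 by 0.17. Among 13 other sources of NADPH only the folate enzymes MTHFD2 (0.12) and MTHFD1 (-0.08) were called with the drug, against the same 15% and 13.2% of all genes. With ascites 0 of the 13 were called, and 2 had an unadjusted p under 0.05. Of 13 FASN partners and mitochondrial fatty acid synthesis genes, 0 were called by edgeR in any of the 8 contrasts, also where 15% and 13.2% of all genes were called. A contrast had 0 to 2 of the 13 with an unadjusted p under 0.05, against 445 to 4667 of all 12470 genes. Among those of the 13 was AASDHPPT, named after its values were seen, which attaches the phosphopantetheine arm that FASN needs. It was at 0.11 with ascites averaged over the drug (edgeR adjusted p 0.248).

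**Figure D4:**
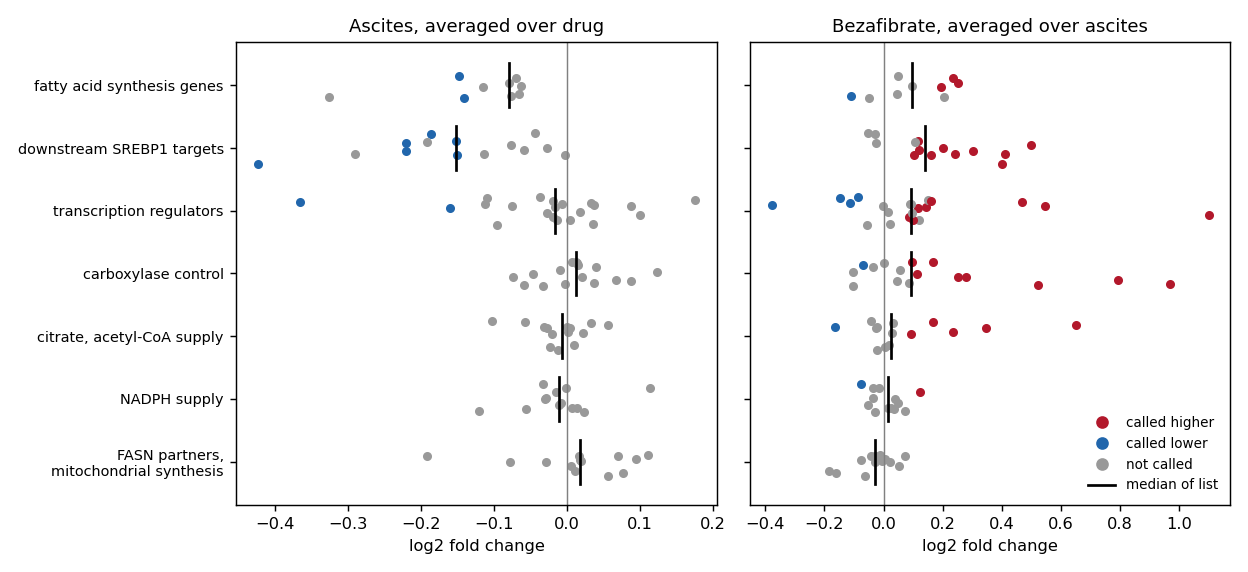
Log2 fold changes (horizontal axis) of every tested gene in the pathway and in 6 lists around it, for ascites averaged over the drug (left) and bezafibrate averaged over ascites (right); each point is 1 gene, red and blue points are called higher and lower, and black bars are list medians. The medians of the pathway and of the downstream SREBP1 targets are -0.08 and -0.15 on the left and 0.09 and 0.14 on the right.

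The genes whose log2 CPM followed ACLY, ACACA and FASN most closely were taken by Pearson's r over the 12 libraries, among the 9355 genes that averaged 10 CPM or more. These correlations describe the 12 libraries, which share their depth and treatment structure, and carry no test. For ACACA they were TFRC, the transferrin receptor (r = 0.93), PRKCA (0.89) and PRRC2C (0.88), and for ACLY they were SYNRG (0.91), OTUD4 (0.90) and NOMO2 (0.89). For FASN they were DOHH (0.87), DGCR8 (0.86) and B4GALT2 (0.84), whose transcripts have GC contents of 67.5%, 54.65% and 60.78%, beside 65.34% for FASN. Within the pathway, ACLY and ACACA had r = 0.79, ACSS2 and SLC25A1 0.66, ACACA and FASN 0.60, and ACLY and FASN 0.30. MID1IP1 and ME1 had r = -0.50.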

How the data were processed

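RNA-seq of 12 CAOV3 libraries was analysed from the deposited per-gene values. Per the submitters' processing notes, reads were handled with Trimmomatic 0.39, STAR 2.7.9a, RSEM 1.3.3 and DESeq2 1.28.1 on GRCh38. The deposited values are read as RSEM's expected counts in whole numbers, as the authors' notes name RSEM. The annotation release, strandedness and rounding are not given in the sources used here.

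Genes were filtered with filterByExpr (minimum count 10, total 15), which left 12470 of 19677, and scaled by TMM. All 12 libraries were fitted together (1 mean per group, 8 residual degrees of freedom) with glmQLFit (robust) and tested with glmQLFTest in edgeR 4.0.16 (R 4.3.3, limma 3.58.1), with Benjamini-Hochberg adjustment over all genes tested. Levels are TMM-scaled CPM, and levels per kb use the longest GENCODE 29 transcript. Coordinates and promoters are from RefSeq GRCh38.p14. The averaged contrasts are means of the contrasts without and with the other treatment. Total counts of 11831093 to 18762759 make counting error small for the abundant members, less so for ACSS2 and ACACB (99 to 277 counts a library), and large for MLXIPL and THRSP. Replicate pairs differed beyond sampling noise (chi-square per degree of freedom 1.44 to 4.45), so each library counted once.

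Members, lists and alternatives were chosen with earlier results of these data known, and removal of the GC trend after the data were seen. All members are named, with up to 4 called genes of each list with the largest changes, of which a few are not reported here. For ACLY, ACACA and FASN the 3 most alike genes are named. SCD, CPT1A and SREBF1 are given with group levels as examples. The fit was run on simulated data in which changed genes had larger changes than any member called in the main fit, and no library had a GC trend. That run therefore does not bear on the small changes given here. Alternatives were RLE and upper-quartile scaling, no filter, at least 1 CPM in 3 libraries, DESeq2 1.42.0, only the groups compared, the replicate block, leaving out each library, and removal of the GC trend. Gene by gene, they were read for the members and not for the genes of the lists.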

Additional observations from a re-analysis of the deposited data

How the results depend on the processing

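The number of pathway genes called depended on the processing in 7 of the 8 contrasts, and the causes were not tested. With ascites alone (1 called) the count was 0 under RLE scaling, 0 with the replicate block and 0 in all 6 fits without 1 library. With ascites in the presence of the drug (1 called) it was 0 under upper-quartile scaling, with the replicate block, with only these groups and with the GC trend removed, and 0 to 1 without 1 library. Averaged over the drug (2 called) it was 1 with the GC trend removed, where FASN was at -0.15 (edgeR adjusted p 0.0994), and 1 to 2 without 1 library. With the drug alone (2 called) it was 1 with DESeq2 (ACSS2 lost) and 1 to 2 without 1 library. It was 3 with no filter and with only these groups (MLXIPL gained). For the drug in ascites (2 called) it was 1 with only these groups and 1 with DESeq2 (MID1IP1 lost in both). It was 3 under upper-quartile scaling and with no filter (FASN gained). With the replicate block and with the GC trend removed it was also 3 (ACACB gained), and it was 1 to 2 without 1 library. Averaged over ascites (4 called) it was 2 with DESeq2 (ACACB and ACSS2 lost) and 3 under upper-quartile scaling (ACSS2 lost). Without 1 library it was 1 to 5. For the combination against control (3 called) it was 2 with DESeq2 and with only these groups (SLC25A1 lost), 4 under upper-quartile scaling and with the GC trend removed (ACACA gained), and 1 to 4 without 1 library, and for the interaction it was 0 throughout. Of 72 gene and contrast pairs, 15 were called, of which 4 kept their call in every alternative: ACACA with ascites averaged over the drug, SLC25A1 with the drug alone and averaged, and FASN in the combination against control. The other called pairs lost 58 calls in all, of 240 alternatives run on the 15, and 0 called values changed sign. Of the 57 pairs that were not called, 48 stayed so in every alternative.

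Replicate numbers did not pair the libraries: 18 correlations between same-numbered libraries ran from -0.14 to 0.06, 0 of them over 0.1, and 1 of 12 libraries correlated best with its own number. With the replicate block the adjusted p was 0.0556 for ACACA with ascites alone and 0.103 for FASN with ascites in the presence of the drug, and ACACB in the combination against ascites was called (0.0314). DESeq2 left some low genes without an adjusted p, and these were not counted as lost. The levels per length are a description with no alternative run. Depth limits MLXIPL and THRSP most, at up to 61 and 1 counts a library, and ACACB and ACSS2 less, at 99 to 188 and 142 to 277.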
